A study of Mus musculus with 8 samples.

Results

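The Hippo pathway effectors YAP (Yap1) and TAZ (Wwtr1), 2 of their DNA-binding partners (Tead1 and Tead4), and 5 genes that YAP, TAZ and TEAD are known to switch on (Ctgf, Cyr61, Ankrd1, Amotl2 and Lats2) were described in activated muscle stem cells (ASCs) with and without mitofusin 2. These 9 genes were taken by name, and all 9 of them were found among the 18877 gene symbols measured. ASCs are the resident stem cells of skeletal muscle after they have left quiescence in response to injury. RNA was sequenced from 4 wild-type and 4 mfn2-/- libraries, and the genotype of each library is the one its label gives. Mice of both groups carried the mito-Dendra2 reporter under Pax7-Cre(ERT2) and had received tamoxifen at 75 mg/kg on 5 days, so that Cre and the drug are shared by the groups. Their tibialis anterior muscle was injured with 50 µL of 1.2% BaCl2, and living cells positive for Dendra2 and negative for CD34 were sorted 2 days later. Strain and age are not given in the sources used here. In the mfn2-/- mice the same Cre acts on a floxed Mfn2 gene, so the deletion is limited to cells that expressed Pax7 when tamoxifen was given.

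In the Hippo pathway, the kinases MST1 and MST2 activate LATS1 and LATS2, which phosphorylate YAP and TAZ and keep them out of the nucleus. When the kinases are quiet, as in spread or stretched cells on a stiff matrix, YAP and TAZ enter the nucleus and act through TEAD proteins, which recognise the MCAT element in DNA. The pathway is regulated mainly through the location and stability of the YAP and TAZ proteins, which RNA does not measure, so the RNA of the factors and that of their targets are separate readouts. In muscle stem cells, YAP is known to promote proliferation, and TEAD factors also act at muscle genes.

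Ctgf and Cyr61, which encode the secreted matrix proteins CCN2 and CCN1, were the most abundant of the 9 genes and fell in mfn2-/- ASCs, to 0.305 and 0.445 of their wild-type means. None of the 4 factors and neither feedback inhibitor (Lats2, Amotl2) passed the test in the main comparison. Ankrd1, which encodes a muscle ankyrin repeat protein and is also a known YAP target, had higher values in every mfn2-/- library than in any wild-type library, but its change did not pass the test either. Of the 9 genes, 0 were called higher and 2 were called lower by limma at an adjusted p under 0.05, and with upper-quartile scaling 2 were called higher (Wwtr1 and Ankrd1) and 2 lower. Over all 11754 genes tested, 10.4% were called, 3.99% higher and 6.36% lower, and with upper-quartile scaling the 469 higher and 748 lower calls became 840 higher and 622 lower. The median log2 change of the 9 genes was -0.12, and that of all genes tested was -0.16.

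The libraries were checked before these values were read. They held 1880464 to 7508215 reads in genes, and wild-type 1 and mfn2-/- 4 were the shallowest. Values are normalized reads, which are reads divided by 1 size factor per library, and 1 read was worth 0.534 to 2.27 of them. Changes are differences in log2(normalized reads + 1), which understates the change of weakly expressed genes. The targeted gene Mfn2 gave 243.3, 244.7, 201.7 and 228.1 normalized reads in the wild-type libraries and 104.0, 117.7, 172.4 and 110.0 in the mfn2-/- libraries, a difference of -0.88 on the log2 scale (SE 0.30, limma adjusted p = 0.0848). Its groups did not overlap, although the change did not pass the adjusted test. Wild-type 3 and 4 and mfn2-/- 1 and 2 held reads from 4 Y-linked genes (807 to 2336 reads), and the other libraries held 0. Each group therefore has 2 libraries of either kind, and the changes of several genes are also given within each kind. The labels do not say that libraries of a group came from separate animals, so the p-values measure the spread between these libraries.

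Markers of other cells also differed between the groups. The summed share of 13 markers of fibroadipogenic cells, the connective tissue precursors of muscle, was 4.10% to 5.93% of the reads in wild-type libraries and 0.0266% to 0.0836% in mfn2-/- libraries, and 11 of the 13 were called lower. The 2 not called were Dpt, with means of 342.1 and 153.0 normalized reads, and Ly6a, whose mean was higher in mfn2-/- libraries (11.65 and 34.4). The summed share of 10 tenocyte markers was 0.954% to 1.62% and 0.00736% to 0.0105%, and all 10 were called lower. The defining markers were Pdgfra, at 1918.9 to 3475.1 normalized reads in wild-type libraries and 0 to 64.85 in mfn2-/- libraries, and Tnmd, with means of 2841.3 and 6.78. Among 8 muscle stem cell markers, Myod1, Vcam1 and Des were called higher, and the summed share was 0.194% to 0.242% in wild-type and 0.354% to 0.466% in mfn2-/- libraries. Of the other 5, Itga7 had means of 1248.8 and 621.1 normalized reads and was called lower by DESeq2 but not by limma or edgeR. Pax7, the defining marker of muscle stem cells, was present at means of 662.5 and 714.8 normalized reads. Summed shares were 0.0233% to 0.0440% and 0.0345% to 0.0530% for 9 endothelial markers, 0.000786% to 0.00271% and 0.00231% to 0.00507% for 8 macrophage markers, and 0.00537% to 0.0140% and 0.00524% to 0.0106% for 5 Schwann cell markers. For 8 mural cell markers they were 0.0723% to 0.0904% and 0.0446% to 0.0840%, and of the 6 tested Abcc9 was called higher (log2 change 1.44) while Pdgfrb (means of 583.4 and 73.8 normalized reads) and Cspg4 (512.8 and 37.9) were called lower. Fibroblasts and tenocytes are known to express Ctgf and Cyr61 strongly, and the part of these markers in the results below was not tested. In bulk RNA, fewer cells of a type and less RNA per cell cannot be told apart.

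Per kilobase of exon, the order of the genes in wild-type ASCs ran from Cyr61 at 3126.6 ± 191.1 (SD, n = 4) normalized reads per kilobase through Ctgf at 1433.2 ± 249.9 to Tead4 at 5.94 ± 1.65. In between stood Wwtr1 (209.6 ± 28.4), Amotl2 (205.7 ± 32.5), Lats2 (108.0 ± 14.0), Ankrd1 (73.2 ± 22.8), Tead1 (56.6 ± 19.0) and Yap1 (45.6 ± 9.95). The library values of the neighbours Wwtr1 and Amotl2 overlapped, as did those of Lats2 and Ankrd1, of Ankrd1 and Tead1, and of Tead1 and Yap1, so that their order is not separated from the spread. TAZ was thus the more abundant of the 2 coactivator RNAs in every library, and TEAD1 the more abundant of the 2 TEAD RNAs named here. In mfn2-/- ASCs the order was the same, with Cyr61 at 1390.1 ± 71.8 and Ctgf at 437.2 ± 218.9 normalized reads per kilobase. There the values of Ctgf overlapped with those of Wwtr1 (270.8 ± 13.6), those of Lats2 (127.2 ± 19.0) with those of Ankrd1 (127.0 ± 26.4), and those of Tead1 (66.2 ± 14.6) with those of Yap1 (42.6 ± 11.3).

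**Figure D1:**
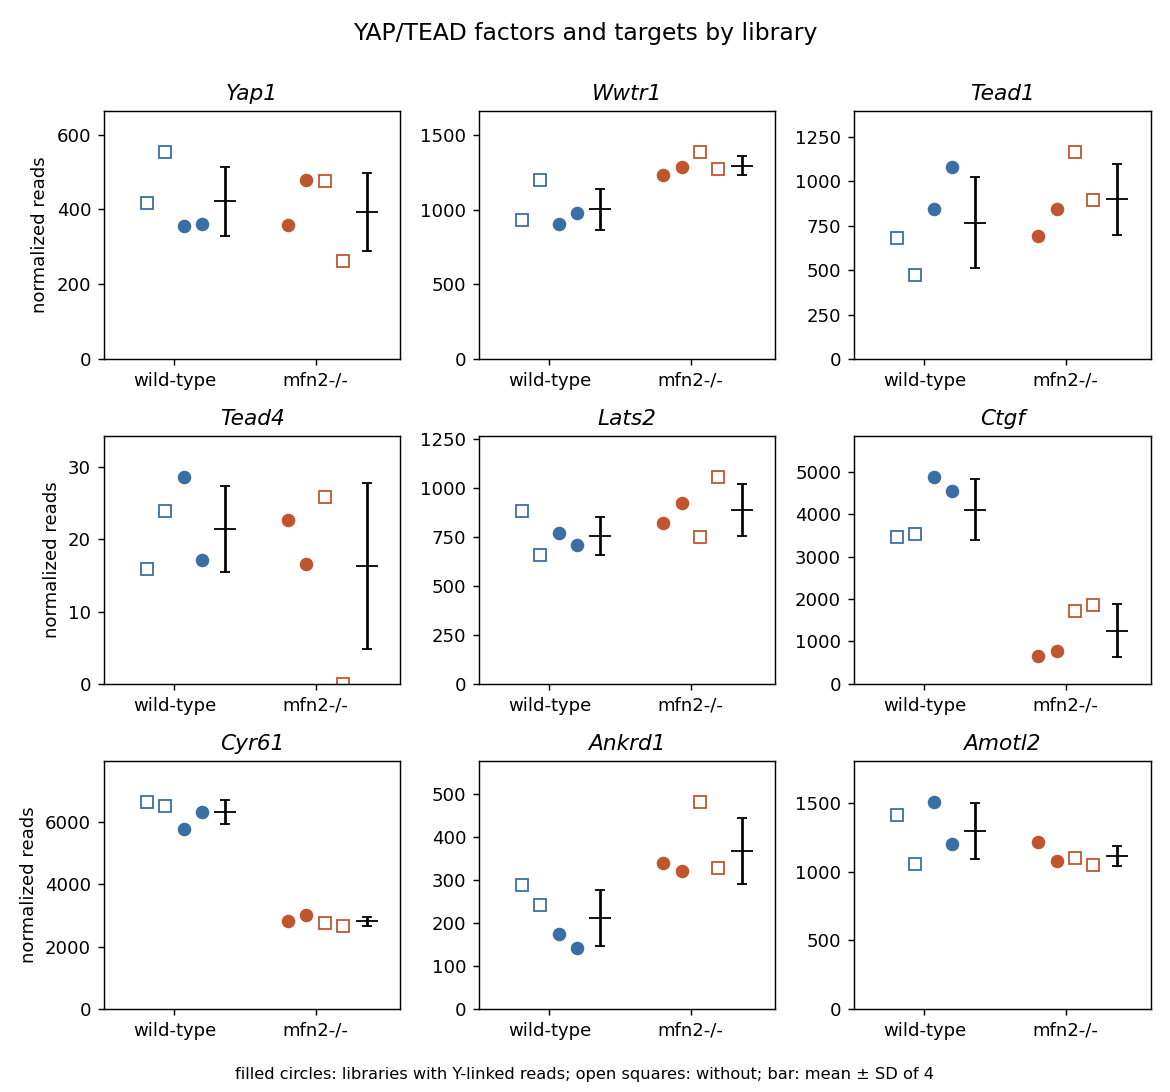
Normalized reads (vertical axes, each from 0) of the 9 genes in the 4 wild-type (blue) and 4 mfn2-/- (orange) libraries, in replicate order from left to right, with filled circles for libraries that hold Y-linked reads, open squares for those that do not, and a bar for the mean ± SD. Ctgf and Cyr61 lie lower in all 4 mfn2-/- libraries, and Wwtr1 and Ankrd1 lie higher, while the other 5 genes overlap.

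The coactivators were described first. Yap1 (chromosome 9, 7931999 to 8004596, minus strand, in GENCODE M21 on GRCm38, as for the genes that follow) gave 416.2, 553.8, 356.1 and 361.1 normalized reads in wild-type 1 to 4 and 358.7, 478.8, 476.8 and 262.0 in mfn2-/- 1 to 4. The groups overlapped over most of their range, and the highest and the lowest value both came from libraries without Y-linked reads, wild-type 2 and mfn2-/- 4. The log2 change was -0.12 (SE 0.26, 95% interval -0.68 to 0.44, limma adjusted p = 0.821), so a change of either sign and of moderate size lies within the interval. Against the median of all genes its change was 0.04.

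Wwtr1 (chromosome 3, 57455649 to 57575910, minus strand), which encodes TAZ, gave 927.9, 1199.8, 901.6 and 977.1 normalized reads in wild-type and 1233.5, 1283.0, 1386.1 and 1273.6 in mfn2-/- libraries. The lowest mfn2-/- library lay just above the highest wild-type library, wild-type 2. The log2 change was 0.38 (SE 0.17, 95% interval 0.01 to 0.75) and did not pass the test over all genes (limma adjusted p = 0.191). Of 22 alternatives it passed in 2, upper-quartile scaling (0.58, limma adjusted p = 0.0415) and library weights (0.41, limma adjusted p = 0.036). With quantile normalization it was 0.27 (limma adjusted p = 0.402). Against the median of all genes the change was 0.54 both in the main fit and with upper-quartile scaling. Both agree by construction, since a factor per library shifts a gene and the median alike. With quantile normalization the change against the median was 0.15. The change was much the same within the libraries with Y-linked reads (0.42) and within those without (0.33). Of all genes tested, 19.5% had groups that did not overlap, and 4 of the 9 genes did (Wwtr1, Ctgf, Cyr61 and Ankrd1). The balance of the coactivators, as log2 of Wwtr1 over Yap1, was 1.26 ± 0.15 in wild-type and 1.75 ± 0.38 in mfn2-/- ASCs (SD, n = 4). That difference of 0.49 gave an exact two-sided permutation p of 0.0571, or 0.229 after adjustment over the 4 paralog ratios compared, where the smallest p this test can give is 0.0286.

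The TEAD proteins carry YAP and TAZ to DNA. Tead1 (chromosome 7, 112679318 to 112906807, plus strand), a TEAD that is abundant in striated muscle, gave 680.0, 469.8, 842.0 and 1080.7 normalized reads in wild-type and 689.4, 842.2, 1165.0 and 896.1 in mfn2-/- libraries. The groups overlapped, and the log2 difference was 0.26 (SE 0.26, limma adjusted p = 0.571). Its sign differed between the kinds of library, at -0.32 with Y-linked reads and 0.85 without, and the difference of -1.18 had an unadjusted p of 0.00725 in limma but did not pass the test over all genes (limma adjusted p = 0.191).

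Tead4 (chromosome 6, 128224288 to 128300823, minus strand), which is known as a target of MYOD in differentiating myoblasts, was the weakest of the genes. It gave 15.92, 23.85, 28.58 and 17.10 normalized reads in wild-type and 22.67, 16.59, 25.79 and 0 in mfn2-/- libraries. The library at 0, mfn2-/- 4, was the shallowest of its group, and 0 of its 2269009 reads allows a level of up to 5.50 normalized reads (3 reads), which covers counting error only. That library alone gives the log2 change of -1.08 (SE 1.21, limma adjusted p = 0.623) its sign, since without it the change was 0.04. The log2 ratio of Tead4 to Tead1 was -5.08 ± 0.71 and -6.43 ± 2.28 (SD, n = 4, exact permutation p = 0.314, adjusted p = 0.419), and within the libraries with Y-linked reads the difference between the groups was 0.14 and not -1.35.

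The list of other TEAD proteins and their Vestigial-like (VGLL) cofactors, which compete with YAP and TAZ for TEAD, held 5 tested genes. Of these, 1 was called higher, where 3.99% of all genes were. Tead3 (chromosome 17, 28331671 to 28350817, minus strand) gave 168.3, 260.3, 100.4 and 83.34 normalized reads in wild-type and 477.4, 368.2, 330.9 and 326.2 in mfn2-/- libraries, without overlap. It rose by 1.42 on the log2 scale (SE 0.36, limma adjusted p = 0.0235), by 2.18 within the libraries with Y-linked reads and 0.65 within those without (limma adjusted p of the difference 0.245). The most abundant cofactors, Vgll3 and Vgll4, had log2 changes of 0.78 and 0.74 that did not pass (limma adjusted p = 0.149 and 0.246).

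**Figure D2:**
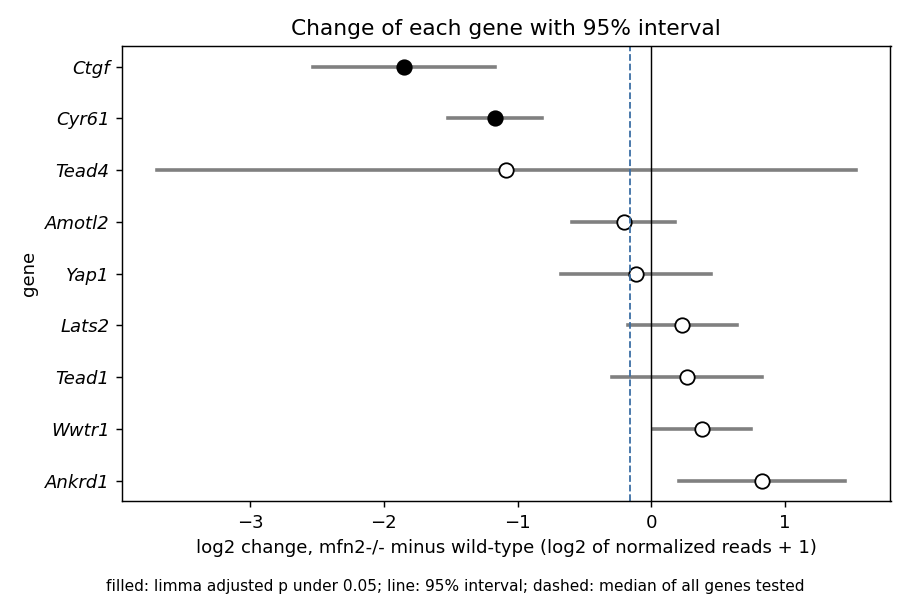
Log2 change of each of the 9 genes, mfn2-/- minus wild-type (horizontal axis, log2 of normalized reads + 1), with its 95% interval as a grey line, filled points for a limma adjusted p under 0.05 and a dashed line at the median of all 11754 genes tested (-0.16). The intervals of Ctgf (-2.53 to -1.17) and Cyr61 (-1.52 to -0.82) lie wholly below that median, and the interval of Tead4 is the widest.

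Among the targets, the secreted CCN genes carried the change. Ctgf (Ccn2 in the annotation, chromosome 10, 24595442 to 24598683, plus strand) encodes a matrix-associated protein that promotes fibrosis and is widely used to read YAP activity. It gave 3459.1, 3525.9, 4872.2 and 4544.1 normalized reads in wild-type 1 to 4 and 648.1, 776.6, 1723.6 and 1854.5 in mfn2-/- 1 to 4. Every mfn2-/- library lay below every wild-type library, and mfn2-/- 1 and 2 lay far below mfn2-/- 3 and 4. The mean went from 4100.3 ± 715.0 to 1250.7 ± 626.1 (SD, n = 4), 3.28 times lower, and the log2 difference was -1.85 (SE 0.31, limma adjusted p = 0.0023). Set against the median of all genes, the change was -1.69.

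The fall of Ctgf differed between the kinds of library. It was -2.73 on the log2 scale in the libraries with Y-linked reads, where wild-type was highest and mfn2-/- lowest, and -0.97 in those without. The difference of -1.76 (SE 0.20) passed the test over all genes (limma adjusted p of the interaction 0.00273), and 1 of the 9 genes passed it where 1.47% of all genes did. It was not particular to Ctgf, since Myof among the other YAP or TAZ targets (-1.86, limma adjusted p = 0.0465) and Acta2 among the SRF targets (-1.83, limma adjusted p = 0.0452) passed with the same sign, and 8 of 12 immediate early genes passed with the opposite sign. The kind of library coincides within each group with the replicate pairs 1 and 2 or 3 and 4, so Y-linked reads and those pairs cannot be told apart. Libraries of 1 pair were closer to each other than to the other pair of their group in the wild-type. In the mfn2-/- group this held for mfn2-/- 1 and 2 but not for 3 and 4. There, mfn2-/- 3 was nearer to mfn2-/- 2 (chi-square per degree of freedom of the reads 39.45) than to mfn2-/- 4 (42.42). The SE of the interaction rests on the spread within pairs, with 1 pair per genotype and kind and so no replication between pairs. The fibroadipogenic share was 5.75% to 5.93% in wild-type libraries with Y-linked reads and 4.10% to 4.27% in those without, and 0.0808% to 0.0836% and 0.0266% to 0.0447% in the mfn2-/- libraries. Ctgf was thus higher where that share was higher among the wild-type libraries and where it was lower among the mfn2-/- libraries. Collagens made the largest parts of the share in wild-type libraries (Col1a1 mean 106037.3 normalized reads, Pdgfra 2530.9), and its markers did not move together. Col1a1 stood at 130172.4 and 118455.4 in wild-type 3 and 4 and at 91854.2 and 83667.2 in wild-type 1 and 2. Pdgfra went the other way (2111.9 and 1918.9, then 2617.6 and 3475.1), as did Dcn. The part of the share in the difference was not tested.

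Cyr61 (Ccn1 in the annotation, chromosome 3, 145646976 to 145649981, minus strand) encodes a matrix protein that binds integrins and is induced within minutes of mechanical or growth factor stimulation. It gave 6640.8 and 6527.0 normalized reads in wild-type 1 and 2, 5771.4 and 6311.3 in wild-type 3 and 4, and 2809.7, 3000.6, 2762.7 and 2653.5 in mfn2-/- 1 to 4. The groups lay far apart and each was tight, with means of 6312.6 ± 385.8 and 2806.6 ± 144.9 (SD, n = 4), 2.25 times lower in mfn2-/- ASCs. The log2 difference was -1.17 (SE 0.16, limma adjusted p = 0.000551), and unlike that of Ctgf it was close in both kinds of library (-1.06 with Y-linked reads and -1.28 without, limma adjusted p of the interaction 0.604). When the libraries of a pair were averaged, which leaves 2 values per group, its adjusted p was 0.0718 while Ctgf still passed. The log2 ratio of Ctgf to Cyr61 was -0.64 ± 0.33 in wild-type and -1.32 ± 0.83 in mfn2-/- ASCs (SD, n = 4, exact permutation p = 0.229, adjusted p = 0.419), and its difference was -1.67 with Y-linked reads and 0.32 without.

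**Figure D3:**
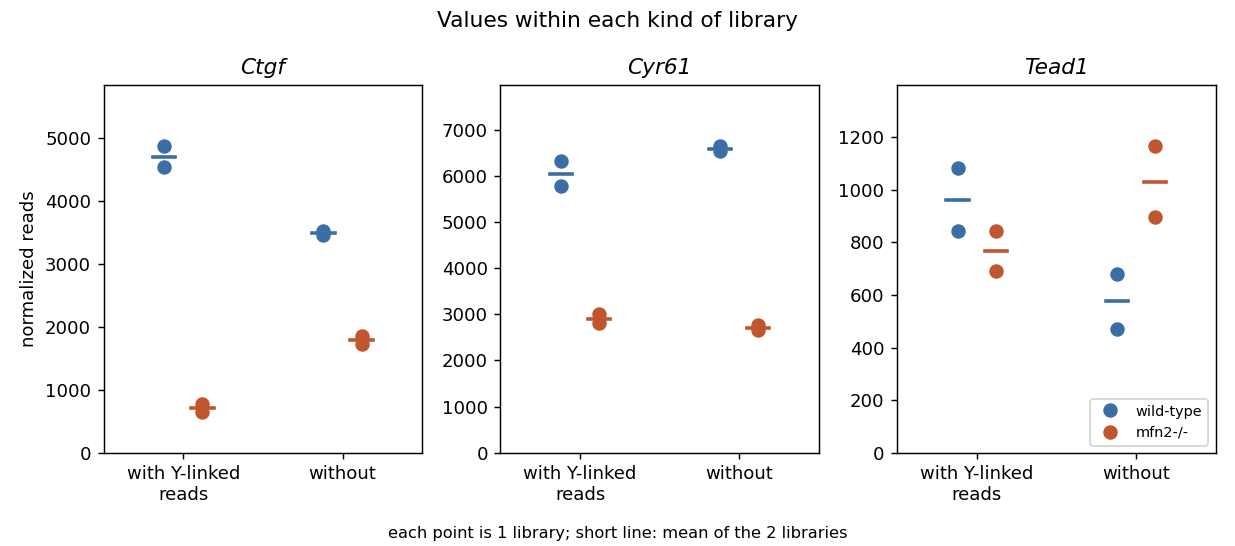
Normalized reads (vertical axes, each from 0) of Ctgf, Cyr61 and Tead1 in libraries with and without Y-linked reads, with 1 point per library (blue wild-type, orange mfn2-/-) and a short line at the mean of 2 libraries. Ctgf differs more between the genotypes with Y-linked reads, Cyr61 about equally in both kinds, and Tead1 in opposite directions.

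Ankrd1 (chromosome 19, 36111961 to 36120099, minus strand) encodes a cardiac and skeletal muscle ankyrin repeat protein that is induced by stretch and injury. It gave 288.8, 240.6, 173.1 and 142.6 normalized reads in wild-type and 338.0, 320.0, 480.5 and 328.0 in mfn2-/- libraries. The 4 mfn2-/- values were higher than any of the 4 wild-type values, opposite to Ctgf and Cyr61, with mfn2-/- 3 standing apart at the top. The means were 211.3 ± 65.9 and 366.6 ± 76.3 (SD, n = 4), 1.74 times higher in mfn2-/- ASCs. The log2 change of 0.82 (SE 0.29) did not pass (limma adjusted p = 0.0902), although the exact permutation test for this single gene gave its smallest possible p, 0.0286. It did pass in 4 of 22 alternatives, among them upper-quartile scaling (1.03, limma adjusted p = 0.0324) and a term for the kind of library (0.82, limma adjusted p = 0.0497). The change was 1.06 within the libraries with Y-linked reads and 0.59 within those without.

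The 2 feedback inhibitors among the targets did not pass the test. Amotl2 (chromosome 9, 102716672 to 102733418, plus strand), an angiomotin-like scaffold that holds YAP in the cytoplasm, gave 1410.0, 1053.6, 1507.6 and 1203.1 normalized reads in wild-type and 1215.5, 1077.6, 1101.7 and 1050.0 in mfn2-/- libraries. The groups overlapped, and the log2 change was -0.21 (SE 0.18, 95% interval -0.59 to 0.18, limma adjusted p = 0.507). Lats2 (chromosome 14, 57689662 to 57758388, minus strand), the kinase that phosphorylates YAP, gave 882.4, 656.4, 766.8 and 705.7 in wild-type and 821.4, 923.6, 748.0 and 1053.7 in mfn2-/- libraries. These also overlapped, with a log2 change of 0.23 (SE 0.19, 95% interval -0.18 to 0.64, limma adjusted p = 0.488). A fall of the size seen for Ctgf or Cyr61 lies outside both intervals. The log2 ratio of Lats2 to Lats1 was 0.65 ± 0.30 and 0.58 ± 0.55 (SD, n = 4, exact permutation p = 0.83, adjusted p = 0.83).

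The bases upstream of 3 of the targets are shown because these targets share a TEAD motif there but gave different results in the test. Each run holds the 250 bases before the start site, 5′ to 3′ on the strand of the gene, from RefSeq on GRCm38.p6. The start sites are those of RefSeq, and by the GENCODE coordinates given above the windows of Ankrd1 and Amotl2 lie within the gene. Capitals mark GGAATG, the core of the MCAT element, or CATTCC, the same motif on the other strand.
Cyr61, chr3:145649986-145650235, minus strand: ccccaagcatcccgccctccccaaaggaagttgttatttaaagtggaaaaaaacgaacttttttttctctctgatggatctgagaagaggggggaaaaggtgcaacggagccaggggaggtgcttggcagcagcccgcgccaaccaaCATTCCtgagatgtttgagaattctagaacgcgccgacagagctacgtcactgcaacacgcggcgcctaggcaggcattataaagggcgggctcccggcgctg
Ankrd1, chr19:36119845-36120094, minus strand: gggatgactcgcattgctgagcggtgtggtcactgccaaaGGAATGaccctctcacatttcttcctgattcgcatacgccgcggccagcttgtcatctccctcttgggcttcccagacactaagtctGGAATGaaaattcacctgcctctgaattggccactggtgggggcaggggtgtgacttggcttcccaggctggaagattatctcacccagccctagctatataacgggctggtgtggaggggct
Amotl2, chr9:102717554-102717803, plus strand: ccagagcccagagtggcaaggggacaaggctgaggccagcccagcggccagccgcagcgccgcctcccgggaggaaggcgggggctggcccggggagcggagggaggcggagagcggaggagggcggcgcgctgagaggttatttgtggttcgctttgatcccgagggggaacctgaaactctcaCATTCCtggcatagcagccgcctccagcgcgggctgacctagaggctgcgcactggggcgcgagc
Cyr61, which fell, has 1 match 98 to 103 bases before its start site. Amotl2, which did not pass the test, has 1 match 60 to 65 bases before it. Ankrd1, whose values lay higher in mfn2-/- ASCs, has 2 matches, at 118 to 123 and 205 to 210 bases.

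Upstream windows were matched for 6 of the 9 genes (8 windows, since Wwtr1 and Lats2 have 2 start sites each), and none was matched for Ctgf, Tead1 and Tead4. GGAATG was found on either strand in 6 of the 8 windows, and in 12.6% of all 32851 windows of 250 bases. Those with a match came from 5 of the 6 genes, among them Yap1 and Wwtr1 themselves but not Lats2. The 2 windows of Wwtr1 overlap and hold the same match. The AP-1 motif TGANTCA and the CArG box bound by SRF, which is searched for here by name, were found in 0 of the 8 windows, against 6.75% and 1.47% of all windows. No match of these motifs therefore overlapped one of GGAATG. A match is a description of the letters only, and of the 5 genes with one, Cyr61 alone passed the test.

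The neighbours of these genes in the pathway were taken from lists. Among 17 other known YAP or TAZ targets, 15 were tested, of which 1 was called higher and 5 were called lower. Over all genes tested, 3.99% were called higher and 6.36% lower. The median log2 change was -0.77 against -0.16 over all genes. Nt5e, the surface ectonucleotidase CD73, gave 154.6 to 174.8 normalized reads in wild-type and 11.0 to 28.0 in mfn2-/- libraries (log2 change -3.14, limma adjusted p = 0.00376). F3, tissue factor, gave 70.52 to 122.5 and 0 to 12.64 (log2 change -3.95, limma adjusted p = 0.0258). Ccdc80, a matrix protein, gave 898.3 to 1568.5 and 294.0 to 547.4 (log2 change -1.67, limma adjusted p = 0.000944).

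The other 2 genes of this list called lower were Igfbp3, a secreted binding protein of insulin-like growth factors (log2 change -1.22, limma adjusted p = 0.0348), and Arhgef17 (log2 change -1.64, limma adjusted p = 0.0119). Gadd45a, a growth arrest gene that p53 also induces, rose by 1.40 on the log2 scale (limma adjusted p = 0.0151), from 157.1 to 347.4 normalized reads in wild-type to 412.7 to 898.3 in mfn2-/- libraries. Its change was 2.28 within the libraries with Y-linked reads and 0.52 within those without (limma adjusted p of the interaction 0.0584). The 2 most abundant genes of this list not called were Axl, a receptor tyrosine kinase (log2 change -0.31, limma adjusted p = 0.323), and Rbms3, an RNA-binding protein (0.03, limma adjusted p = 0.947). Fjx1 and Foxf2 were below the filter on low values. Some of these calls ended when a library was left out: that of F3 without any one of the 4 wild-type libraries, that of Gadd45a without mfn2-/- 2, and that of Igfbp3 without wild-type 2, 3 or 4 or without mfn2-/- 1, 2 or 3. The fibroadipogenic and tenocyte shares given above also moved with the genotype, and their part in these calls was not tested.

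Among 21 Hippo regulators, 20 were tested, 2 were called higher and 2 lower, and the median log2 change was -0.16. Over all genes tested, 3.99% were called higher and 6.36% lower, and the median was also -0.16. In the core kinase cassette limma called no member, with log2 changes of 0.39 for Stk3 and -0.94 for Stk4, which encode MST2 and MST1, -0.10 for their scaffold Sav1 and 0.30 for Lats1. For the LATS cofactors Mob1a and Mob1b the log2 changes were 1.05 (limma adjusted p = 0.0607) and -0.02. Mob1a was called higher by edgeR and DESeq2 and, in limma, with upper-quartile scaling, quantile normalization, a term for the kind of library or library weights. The same call was made in limma with a filter at a mean of 50 and without mfn2-/- 1. Stk4 was called with library weights. Of the upstream kinases, Map4k4, which can activate LATS in place of MST, rose from 1354.4 to 1896.5 normalized reads in wild-type to 2855.2 to 4685.7 in mfn2-/- libraries (log2 change 1.15, limma adjusted p = 0.00267). Its change was 0.72 within the libraries with Y-linked reads and 1.58 within those without (limma adjusted p of the interaction 0.107). Frmd6, a FERM domain protein of the cell cortex, rose by 0.84 (limma adjusted p = 0.0106).

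The atypical cadherin Fat4 and its ligand Dchs1 were the 2 regulators called lower. Fat4 gave 701.0 to 1102.6 normalized reads in wild-type and 32.99 to 308.0 in mfn2-/- libraries (log2 change -2.85, limma adjusted p = 0.0049), and Dchs1 gave 316.1 to 518.6 and 67.8 to 146.2 (log2 change -1.75, limma adjusted p = 0.00395). Without an intensity trend in the model, Dchs1 was the only regulator of the 20 still called. Nf2, the tumour suppressor Merlin, stood at 1794.4 in wild-type 1 and at 321.5 to 863.8 in the other 7 libraries (log2 change -0.998, limma adjusted p = 0.107). The most abundant regulators not called were Taok1 (-0.03, limma adjusted p = 0.933) and Amotl1 (-0.31, limma adjusted p = 0.331).

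**Figure D4:**
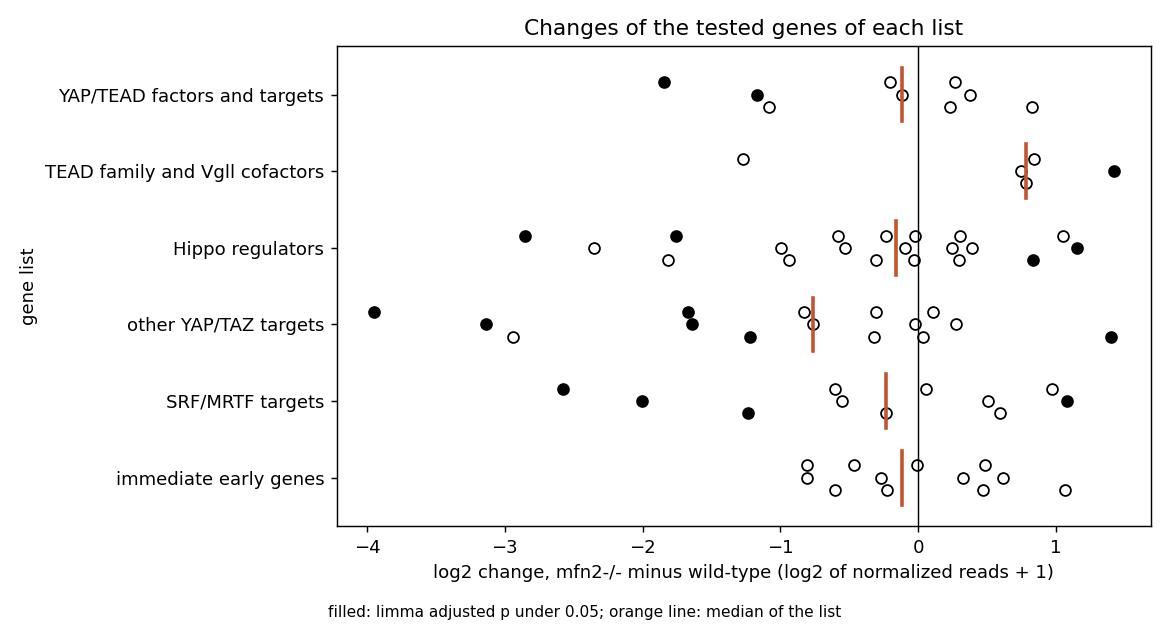
Log2 change, mfn2-/- minus wild-type (horizontal axis, log2 of normalized reads + 1), of every tested gene of 6 lists, with filled points for a limma adjusted p under 0.05 and an orange line at the median of each list. The other YAP/TAZ targets have 5 filled points below 0 and 1 above, and the immediate early genes have none.

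Ctgf, Cyr61 and Ankrd1 also answer to serum response factor (SRF) with its actin-sensing coactivators MRTF, and Cyr61 and Ctgf are immediate early genes, so both programmes were set beside them. Of 11 tested SRF and MRTF targets, 1 was called higher and 3 lower, with a median log2 change of -0.24. Over all genes tested, 3.99% were called higher and 6.36% lower, and the median was -0.16. Cytoplasmic actin Actg1 rose by 1.08 (limma adjusted p = 0.0109), although reads from its near-identical relatives could be split between them. Tropomyosin Tpm1, calponin Cnn2 and the myosin light chain Myl9 had log2 changes of -1.24, -2.01 and -2.58 (limma adjusted p = 0.00444, 0.0163 and 0.0383). Myl9 was also called by DESeq2 but not by edgeR. The most abundant genes not called were Actb (0.06, limma adjusted p = 0.92) and filamin Flna (-0.24, limma adjusted p = 0.469).

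Of 12 immediate early genes, which are switched on within minutes of a stimulus, including dissociation of the tissue, limma and edgeR called 0, DESeq2 called 2 (Fos and Ier2, both lower), and 3 had an unadjusted limma p under 0.05. Their median log2 change was -0.12 over all libraries, 0.73 within the libraries with Y-linked reads and -0.65 within those without. Their summed share was 1.99% to 2.51% in wild-type libraries, 2.83% to 3.04% in mfn2-/- 1 and 2, and 1.54% to 1.59% in mfn2-/- 3 and 4. Among the mfn2-/- libraries, those with the higher share thus had the lower Ctgf, while Cyr61 lay between 2653.5 and 3000.6 in all 4. The share follows the replicate pairs there, and its part in the values of Ctgf and Cyr61 was not tested. The most abundant members, Egr1 and Jun, had log2 changes of -0.01 and -0.27 (limma adjusted p = 0.989 and 0.521).

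The genes whose pattern over the 8 libraries was most like that of Yap1 and of Ctgf were found as those with the smallest root mean square difference of centred log2 values. For Yap1 they were Rnh1 (0.12), Tmem87a (0.14) and Usp24 (0.16), where the median gene was at 0.95. For Ctgf they were Txndc5 (0.18), Ralgps2 (0.24) and Lox (0.29), where the median gene was at 1.43. Lox, which encodes the enzyme lysyl oxidase that crosslinks collagen, had means of 1110.0 and 382.2 normalized reads and fell by 1.62 on the log2 scale (limma adjusted p = 0.00187). Txndc5, a protein disulfide isomerase, fell by 1.64 (limma adjusted p = 0.00222), and Ralgps2 by 1.90 (limma adjusted p = 0.0478).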

How the data were processed

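Libraries were made from total RNA of the sorted ASCs with a stranded kit for low input. The submitters' processing notes name Trim Galore, HISAT2, featureCounts, DESeq2 and the mm9 build, and whether reads were counted by strand is not given in the sources used here. The deposited table gives a signal per gene, namely read counts that the authors divided by 1 size factor per library, for 18877 symbols in 8 columns (0 columns of no sample). Every value (100%) was a whole multiple of a step particular to its column (tolerance 0.01), and dividing by it gave back whole reads. Depth was 1880464 to 7508215 reads, and without molecular identifiers precision covers counting error only.

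Genes with a mean of at least 10 (11754) entered a limma fit (3.58.1, R 4.3.3) of log2(value + 1) over all 8 libraries, without covariates and with a trend in intensity. Its two-sided p-values were adjusted by Benjamini-Hochberg, at 0.05. A second limma fit held genotype, kind of library (with or without Y-linked reads) and their interaction. For single values and ratios, exact permutation tests (two-sided, 70 arrangements) were run. Coordinates and exon lengths come from GENCODE M21 (GRCm38), since the table has none, and upstream sequences from RefSeq (GRCm38.p6). The limma, edgeR and DESeq2 fits were also run on simulated counts drawn independently for each library, which do not hold the replicate pairs. The permutation tests were not simulated.

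The 9 genes and all lists were chosen with earlier results of these data known, so list counts and medians are descriptions. Named were all 9 genes, up to 6 called genes of each other list by smallest p and its 2 most abundant genes not called, and the 3 genes most like Yap1 and Ctgf. The core kinases Stk3, Stk4 and Lats1 with Sav1, Mob1a and Mob1b, the genes Nf2, Myof and Acta2, and the genes of the markers paragraph were named after their values were seen. Alternatives were other pseudocounts (0.1 and 10), filters, scalings, the replicate block, no trend, library weights, a term for the kind of library, each library left out, edgeR 4.0.16 and DESeq2 1.42.0 on the recovered reads, and, added after seeing the data, libraries averaged by pair. Tables and figures were made in Python 3.11.15.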

Additional observations from a re-analysis of the deposited data

Results flagged for a closer look

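In mfn2-/- 3, Ankrd1 stood at 480.5 normalized reads, far from 320.0 to 338.0 in the other 3 mfn2-/- libraries. In mfn2-/- 4, the log2 ratio of Tead4 to Tead1 was -9.81, while it ranged from -5.58 to -4.87 over mfn2-/- 1 to 3, because Tead4 had 0 reads there. These were the 2 groups out of 26 examined in which 1 library lay farther from its neighbour than Dixon's 95% critical value for 4 samples, and chance flags about 1 group in 20.

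The change of Ctgf differed between the libraries with and without Y-linked reads by -1.76 on the log2 scale (-2.73 and -0.97, limma adjusted p of the interaction 0.00273, 2 libraries per genotype and kind). Both libraries of mfn2-/- with Y-linked reads (648.1 and 776.6 normalized reads) lay below both without (1723.6 and 1854.5), and both such wild-type libraries lay above the other wild-type libraries.

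The same difference between the kinds of library was -1.86 for Myof and -1.83 for Acta2. It had the opposite sign in 8 immediate early genes, at 1.23 for Fos, 2.24 for Fosb, 1.30 for Junb, 1.94 for Egr1, 1.38 for Atf3, 1.62 for Dusp1, 1.19 for Btg2 and 1.93 for Zfp36. All 10 passed at limma adjusted p of 0.00163 to 0.0465, on 1 pair of libraries per genotype and kind.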

How the results depend on the processing

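Over the 22 alternatives, Ctgf kept its direction and stayed past the threshold in all (log2 changes of -2.39 to -1.58, largest limma adjusted p 0.0484 without an intensity trend), and Cyr61 in 21, with libraries averaged by pair as the exception (-1.17, adjusted p = 0.0718). The 1217 calls over all genes became 633 without an intensity trend, 3037 with library weights, 553 with libraries averaged by pair and 671 to 1331 with 1 library left out (671 without wild-type 3, 749 without wild-type 4). Of the 9 genes, 4 were called with upper-quartile scaling and 4 with library weights (Ankrd1 and Wwtr1 besides Ctgf and Cyr61), 1 with libraries averaged by pair, and 2 to 3 with 1 library left out (Ankrd1 passed without wild-type 1, 0.99, adjusted p = 0.049). Of the other YAP or TAZ targets, 3 were called with libraries averaged by pair and 4 to 7 with 1 library left out. Igfbp3 was also lost with no filter, upper-quartile scaling, quantile normalization and the replicate block, F3 with a pseudocount of 0.1, and Arhgef17 and Gadd45a without an intensity trend. Of the Hippo regulators, 1 was called without an intensity trend, 7 with library weights, 2 with libraries averaged by pair and 4 to 5 with 1 library left out.

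Signs turned for Yap1 with upper-quartile scaling (0.089), with library weights (0.21), and with 1 library left out (-0.22 to 0.066, positive without wild-type 2 at 0.022 and without mfn2-/- 4), for Tead4 with quantile normalization (0.31) and with 1 library left out (-1.54 to 0.037, positive without mfn2-/- 4), and for Tead1 with library weights (-0.058). The difference in the ratio of Lats2 to Lats1 ran from -0.34 to 0.065 with 1 library left out (positive without wild-type 2, mfn2-/- 2 or mfn2-/- 3), that of Tead4 to Tead1 was 0.14 with Y-linked reads, and that of Ctgf to Cyr61 was -1.67 with and 0.32 without Y-linked reads. The causes were not tested. Scaling moved the median of all genes from -0.16 to 0.05 (upper quartile) and 0.13 (quantile).

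Libraries with the same replicate number did not deviate together (correlations of -0.11 to 0.04). Each number joins a library with Y-linked reads to one without, so these correlations cannot decide whether the numbers pair the samples. With a replicate block 1043 genes were called, and the 9 genes gave the same 2 calls (Ctgf and Cyr61), the other targets 5 and the Hippo regulators 4. On the recovered reads, edgeR called 1158 genes and DESeq2 1738, and each called Ctgf and Cyr61 of the 9 genes. Depth limits Tead4 most, with 0 to 35 reads per library.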
